A study of Homo sapiens with 4 samples.

Results

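The ATF4 amino acid response is the set of genes that cells switch on when amino acids run short. It is described here through 37 genes of known function, chosen by name, in 4 roles. The list was drawn up with earlier results of these data known, so its counts are a description and not independent support. It holds 9 genes of serine, glycine, one-carbon and cysteine metabolism and 6 of asparagine, proline, alanine, aspartate and carbon supply. The others are 9 amino acid transporters and 13 genes of stress signalling. Of the 37 genes, 36 had a probe set naming no other gene, among 19775 genes measured in all, and GPT2 was not analysed here. Where a gene had several such probe sets, the brightest on average was used, and 33 genes passed a filter on low values, a reading of at least 5.73 on any array. MTHFD1L, SLC6A9 and STC2 did not pass it, and the platform annotation also gives 2 probe sets that name MTHFD1L together with other loci, which were left out.

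The arrays cover 2 colon cancer cell lines, HT29 and Colo205, both of which carry a mutant BRAF kinase. Parental HT29 and parental Colo205 were compared with HT29RC and Colo205RC, which had become resistant in culture under rising amounts of PLX4720, an inhibitor of that kinase. All cells were grown in medium with 10% serum, and the resistant cells were kept free of PLX4720 for 24 h before harvest, so no array reads cells in the presence of the drug. All values are log2 expression, and where 2 readings of a pair are given the parental one comes first. There was 1 array for each line and status, each resistant population is a single derivative of its line, and the labels name no independent cultures. A difference within a line therefore has no replicate error and no test, and only the agreement between the 2 lines can be tested.

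In this pathway the kinases GCN2, which senses uncharged transfer RNA, and PERK, which senses misfolded protein in the endoplasmic reticulum, phosphorylate the initiation factor eIF2. Most protein synthesis then slows, while the messenger RNA of ATF4 is translated more. ATF4 protein pairs with C/EBP factors and binds composite elements near genes that make, import and charge amino acids, and near CHOP (DDIT3), TRIB3 and other stress genes. ATF4 is set mainly at the level of translation, so an array reads its messenger RNA and its targets but not the amount or activity of the protein.

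The composite element is written TGATGNAA, where N is any base. It was searched on both strands in the RefSeq promoters of build GRCh38.p14, from 250 bases before to 50 bases after each transcription start, and 29 of the 37 genes had such an entry. Of these 29 genes, 11 (37.9%) had a match in at least 1 promoter, beside 4.46% of 27305 genes with an entry. Genes with more promoter entries have more chances of a match. Counted by promoter, 13 of 50 entries of the members (26%) had one, beside 3.62% of 35116. The members were listed as ATF4 response genes, so these shares are a description and not independent support. The sequences below show the element, in capitals, in 5 members whose levels were measured, each 5′ to 3′ on the strand of the gene; in CHAC1 and GOT1 the element lies on the other strand, so its reverse complement is in capitals.
ASNS, chr7:97872453-97872492, minus strand: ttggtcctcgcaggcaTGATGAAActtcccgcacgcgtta
CHAC1, chr15:40953246-40953285, plus strand: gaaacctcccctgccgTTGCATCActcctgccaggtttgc
ATF3, chr1:212565200-212565239, plus strand: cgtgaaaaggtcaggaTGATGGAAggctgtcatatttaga
CEBPG, chr19:33374055-33374094, plus strand: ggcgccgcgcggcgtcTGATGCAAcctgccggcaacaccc
GOT1, chr10:99430799-99430838, minus strand: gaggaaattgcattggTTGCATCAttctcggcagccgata

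The first matched base lies 68 bases before the start of the matched promoter in ASNS, 209 in CHAC1, 191 in ATF3, 42 in CEBPG and 198 in GOT1. ASNS, ATF3 and CEBPG each had another promoter entry, which held no match. The ASNS match is the nutrient-sensing response element known from work on that gene. A match is a description of the letters, and the promoters of DDIT4, PHGDH, PSAT1, TRIB3 and PCK2 held none in this window. Past the filter, members with and without a match overlapped in their Colo205 log2 differences, resistant minus parental. Those with a match ran from -1.83 (ASNS) and -1.81 (ATF3) to 0.11 (SLC1A5), and those without from -2.71 (DDIT4) to 0.07 (ALDH18A1).

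The members were mostly lower in resistant Colo205 than in its parent, and less far apart in the HT29 pair. In Colo205 10 members were 2-fold or more lower, 30.3% of the 33 past the filter, beside 2.51% of the 13651 genes past the filter. They were PHGDH, SHMT2, CTH, ASNS, PCK2, DDIT4, TRIB3, CHAC1, ATF3 and EIF4EBP1. In HT29 2 members, ASNS and DDIT4, were 2-fold or more lower, or 6.06% beside 1.72% of all genes. At 1.5-fold the counts were 16 in Colo205, beside 7.78% of all genes, and 6 in HT29, beside 6.89%. In neither line was a member 2-fold or more higher, where 3.42% of all genes were in HT29 and 0.908% in Colo205. The 3 members that did not pass the filter differed by less than 2-fold in either line, and without any filter 1.81% of all measured genes were 2-fold or more lower in Colo205 and 1.22% in HT29, while 0.637% and 2.42% were higher.

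The median log2 difference of the 33 members was -0.27 in HT29 and -0.57 in Colo205, where that of all genes past the filter was -0.01 and -0.02. Over the 36 measured members it was -0.21 and -0.52. The HT29 median was -0.10 when all probe sets of a gene were averaged and -0.17 after subtraction of neighbouring genes, described below. Of the 33, 20 were lower in both resistant lines (60.6%, beside 30.1% of all genes), 3 were higher in both (beside 26.3%), 9 had a higher value in HT29 but a lower one in Colo205 (beside 22.2%), and ALDH18A1 alone was lower in HT29 and higher in Colo205 (beside 21.2%). In Colo205 29 were lower by any amount, beside 52.4% of all genes, and in HT29 21, beside 51.4%. Without the filter the 20 lower in both stand beside 26.1% of all measured genes. The difference was lower in Colo205 than in HT29 for 28 of the 33, beside 51% of all genes.

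**Figure D1:**
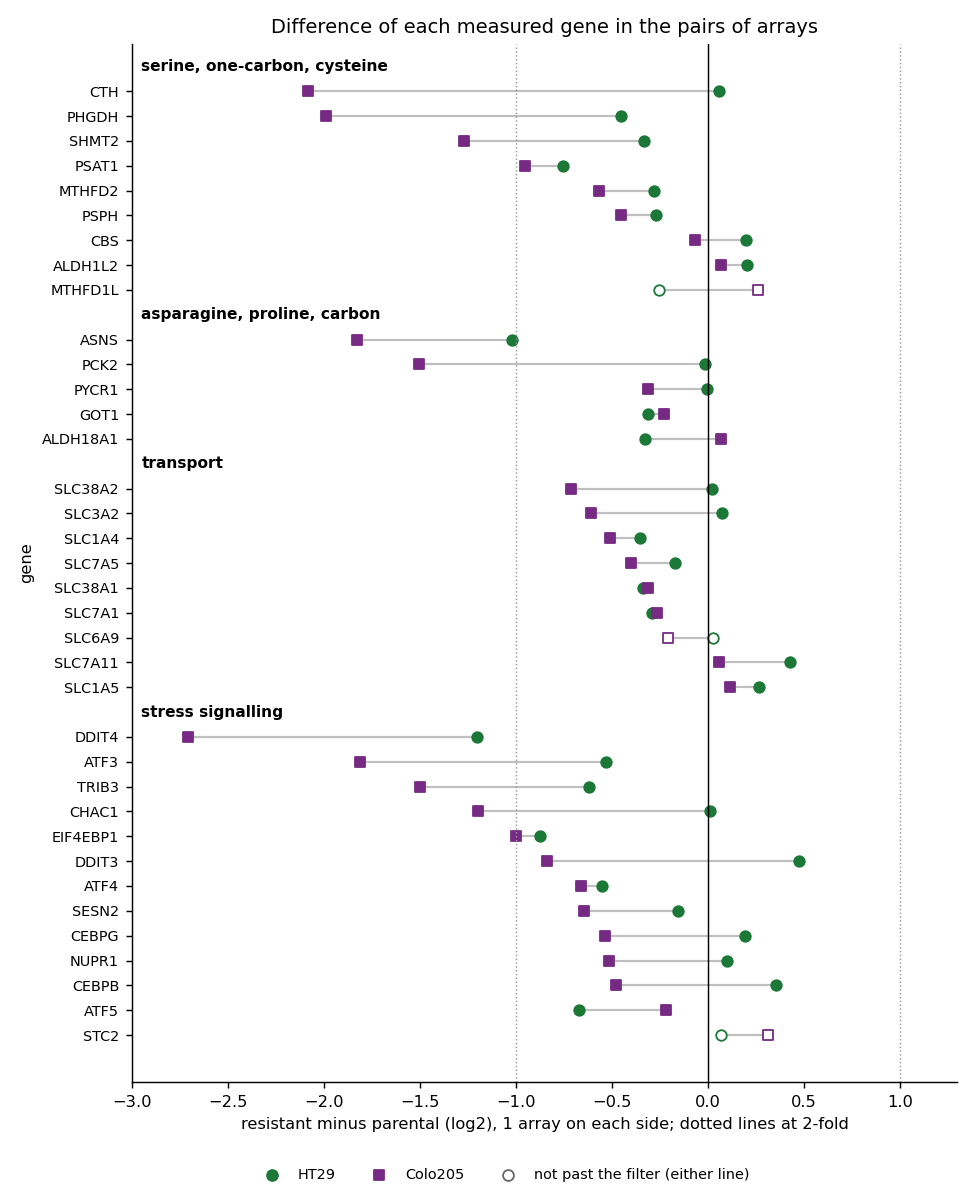
Log2 difference, resistant minus parental, of each of the 36 measured members in HT29 (circles) and Colo205 (squares), grouped by role; each point is 1 array minus 1 array, open symbols mark genes not past the filter, and dotted lines mark 2-fold. Most squares lie left of 0 and left of the circle of the same gene, with DDIT4 lowest in both lines, at -2.71 in Colo205 and -1.20 in HT29.

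Control probe sets moved in the same direction between the same arrays. The 24 poly-A spike controls, bacterial transcripts added to the RNA before labelling, had median differences of -0.43 in HT29 and -0.72 in Colo205, while the 18 hybridisation controls had -0.08 and -0.05. In Colo205 9 members were lower than the lowest spike control (-1.13), beside 1.92% of all genes, and 12 were lower than the spike median, beside 5.2%. In HT29 3 members were lower than the lowest spike control (-0.76), beside 3.76% of all genes, and 9 were lower than the spike median, beside 12%. The 3′ minus 5′ log2 signal of ACTB, a sign of RNA quality, was 2.77 and 2.40 for the HT29 pair and 2.88 and 3.13 for Colo205. That of GAPDH was 0.53 and 0.44 for the HT29 pair and 0.52 and 0.66 for Colo205. For both genes it was thus lower in resistant HT29 than in its parent and higher in resistant Colo205, the highest array. The part of the spike controls and of RNA quality in the members' differences was not tested. The arrays read as epithelium, with 9 of 11 colon epithelial markers past the filter value on all 4 arrays; KRT20 was below it in the Colo205 pair, at 4.79 and 3.95, and CDX2 in both parents, at 5.17 in HT29 and 5.66 in Colo205. On all 4 arrays 2 of 5 fibroblast, 0 of 3 endothelial, 2 of 5 leukocyte and 1 of 3 melanocyte markers read above it, among them LYZ, lysozyme, at 13.46 to 14.03, and PTPRC, CD3D and COL3A1 did not reach it on any array.

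Serine synthesis branches off glycolysis at PHGDH, which oxidises 3-phosphoglycerate. PHGDH read 7.97 and 7.52 in the HT29 pair and 10.08 and 8.09 in the Colo205 pair. Parental Colo205 stood apart from the other 3 arrays, and the Colo205 difference of -1.99 was a 3.97-fold lower signal. One further probe set names PHGDH together with other genes and was left out.

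PSAT1, the aminotransferase of the second step, read 12.30 and 11.54 in the HT29 pair and 13.00 and 12.05 in the Colo205 pair. Both resistant arrays were below both parental arrays, with differences of -0.75 and -0.95, just short of 2-fold. Its other probe set differed by -0.48 and -1.43, past 2-fold in Colo205.

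PSPH, the phosphatase that completes serine, differed by -0.27 in HT29 and -0.45 in Colo205. A second probe set was at -0.31 in HT29 and another, with readings of 4.78 and 5.81 there, was at 1.03. PSPH lies on chromosome 7 in HT29 among genes that were higher, as given below.

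The mitochondrial enzymes that pass the carbon of serine to folate were also lower in Colo205. SHMT2, which splits serine into glycine and a one-carbon unit, read 11.80 and 11.47 in the HT29 pair and 11.98 and 10.71 in the Colo205 pair, so that resistant Colo205 was the lowest of the 4 arrays. Its 3 probe sets lay between -1.37 and -1.15 in Colo205 and between -0.33 and -0.13 in HT29. MTHFD2, the dehydrogenase and cyclohydrolase that follows, differed by -0.28 in HT29 and -0.57 in Colo205. It read 12.70 and 12.42 in the HT29 pair and 12.78 and 12.21 in the Colo205 pair. A second probe set was at -0.35 and -1.07. That set read 6.89 and 6.54 in the HT29 pair and 11.50 and 10.43 in the Colo205 pair. The parents were thus far apart on it but not on the main one, so its -1.07 is not a settled size for MTHFD2. ALDH1L2, the mitochondrial formyltetrahydrofolate dehydrogenase, was at 0.21 and 0.07 and read 5.99 at most, close to the filter value.

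The transsulfuration enzymes take serine and homocysteine to cysteine. CTH, cystathionine gamma-lyase, read 7.17 and 7.22 in the HT29 pair and 7.13 and 5.05 in the Colo205 pair, so that 3 arrays lay within 0.10 of each other and resistant Colo205 was below the filter value. The size of its Colo205 difference (-2.08) is thus not exact, and its second probe set was at -0.77 in Colo205 and -0.30 in HT29. That second set also read below the filter value in resistant Colo205, at 5.46. CBS, cystathionine beta-synthase, was at 0.20 in HT29 and -0.07 in Colo205 by its main probe set. Another probe set past the filter was at -0.35 and -1.52. It read 4.70 and 4.35 in the HT29 pair and 6.20 and 4.68 in the Colo205 pair. Only parental Colo205 was above the filter value on it, so its differences have no exact size. The probe sets of CBS thus did not settle a direction in HT29 or a size in Colo205. MTHFD1L, below the filter value, was at -0.25 and 0.26.

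ASNS, asparagine synthetase, was 2-fold or more lower in both lines. It read 10.54 and 9.52 in the HT29 pair and 11.89 and 10.07 in the Colo205 pair. Both resistant arrays were below both parental arrays, by differences of -1.02 and -1.83, or 2.03-fold and 3.54-fold. A second ASNS probe set, below the filter value on all 4 arrays, was at -0.08 and 0.31, and averaging both ended the 2-fold difference in each line. ASNS and DDIT4 were the only members 2-fold or more lower in both lines, where 0.234% of all genes were.

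PCK2, the mitochondrial form of phosphoenolpyruvate carboxykinase, differed in Colo205 alone by this measure. It read 8.13 and 8.11 in the HT29 pair and 10.23 and 8.73 in the Colo205 pair, so that parental Colo205 was the high array. The other genes of this role lay within 0.33 of 0 in both lines. PYCR1, which makes proline, was at -0.00 and -0.31, ALDH18A1, which makes its precursor, at -0.33 and 0.07, and GOT1, the cytosolic aspartate aminotransferase, at -0.31 and -0.23.

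No transporter was 2-fold or more apart in either line, and their medians over 8 genes past the filter were -0.07 in HT29 and -0.36 in Colo205. SLC38A2, a glutamine and alanine transporter known to be induced by amino acid shortage, was lowest in Colo205 at -0.71 and was at 0.02 in HT29. Its 3 probe sets lay between -0.92 and -0.71 and between 0.02 and 0.22. SLC3A2, the heavy chain shared by several exchangers, differed by 0.07 (HT29) and -0.61 (Colo205), and its partner SLC7A5, the leucine transporter, by -0.17 and -0.40.

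Of the remaining transporters, SLC1A4 was at -0.35 in HT29 and -0.51 in Colo205, SLC38A1 at -0.34 and -0.31, and the cationic amino acid transporter SLC7A1 at -0.29 and -0.26. The HT29 direction of SLC1A4 was not shared, as its other kept probe sets were at 0.07, -0.06 and 0.07 there. Those of SLC38A1 were at 0.03 and -0.23 in HT29. In Colo205 every kept probe set of both genes was lower. Both genes count among the 20 members lower in both lines through their brightest probe set. SLC1A5, the main glutamine importer, was higher in both resistant lines at 0.26 and 0.11. SLC7A11, the cystine and glutamate exchanger, read 11.51 and 11.94 in the HT29 pair and 8.80 and 8.86 in the Colo205 pair. Its Colo205 probe sets ranged from -0.05 to 0.18, and those in HT29 from 0.42 to 1.07, so that the HT29 difference had the same direction in all 3. SLC6A9, the glycine transporter, was below the filter value.

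The stress-signalling genes held the lowest member. DDIT4 (REDD1), which restrains mTORC1, read 8.85 and 7.64 in the HT29 pair and 10.43 and 7.72 in the Colo205 pair. The 2 resistant arrays were within 0.08 of each other while the parents differed by 1.59. Its differences of -1.20 and -2.71 were 2.30-fold and 6.54-fold, and in Colo205 only 0.176% of genes were as low.

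TRIB3, a pseudokinase that ATF4 induces and that feeds back on it, read 10.01 and 9.39 in the HT29 pair and 11.43 and 9.93 in the Colo205 pair. Both resistant arrays were below both parental arrays, and its second probe set was at -0.09 and -0.84. EIF4EBP1, the translation repressor 4E-BP1, read 8.91 and 8.04 in the HT29 pair and 10.60 and 9.60 in the Colo205 pair. Its HT29 difference was -0.88, and its Colo205 difference lay at the 2-fold line.

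CHAC1, which degrades glutathione and is a late target of the response, read 6.51 and 6.52 in the HT29 pair and 8.04 and 6.84 in the Colo205 pair, with parental Colo205 the high array. ATF3, a transcription factor induced by many stresses, read 8.16 and 7.63 in the HT29 pair and 6.72 and 4.91 in the Colo205 pair. Resistant Colo205 was below the filter value, so its difference of -1.81 has no exact size. The 2 other ATF3 probe sets past the filter were no lower than -0.08 in either line and reached 0.39 in Colo205. SESN2, a stress-induced inhibitor of mTORC1, differed by -0.16 (HT29) and -0.65 (Colo205), and its second probe set by -0.02 and -0.85.

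ATF4 itself read 12.30 and 11.75 in the HT29 pair and 13.40 and 12.74 in the Colo205 pair. Each resistant array was lower than its own parent, by -0.55 and -0.66, while resistant Colo205 remained above parental HT29. ATF5, a related factor, differed by -0.67 (HT29) and -0.22 (Colo205), and its 4 probe sets did not share a direction, spanning -0.87 to 0.29 in HT29.

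The partners of ATF4 did not share a direction between the lines. DDIT3, which encodes CHOP, read 7.99 and 8.47 in the HT29 pair and 9.93 and 9.09 in the Colo205 pair, with differences of 0.48 and -0.84. CEBPB was at 0.36 and -0.48 and CEBPG at 0.19 and -0.53, although a second CEBPG probe set was at 0.12 in Colo205. NUPR1, a small chromatin-associated stress protein, was at 0.10 and -0.51 and read 6.75 at most, and STC2, a secreted glycoprotein, was below the filter value.

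**Figure D2:**
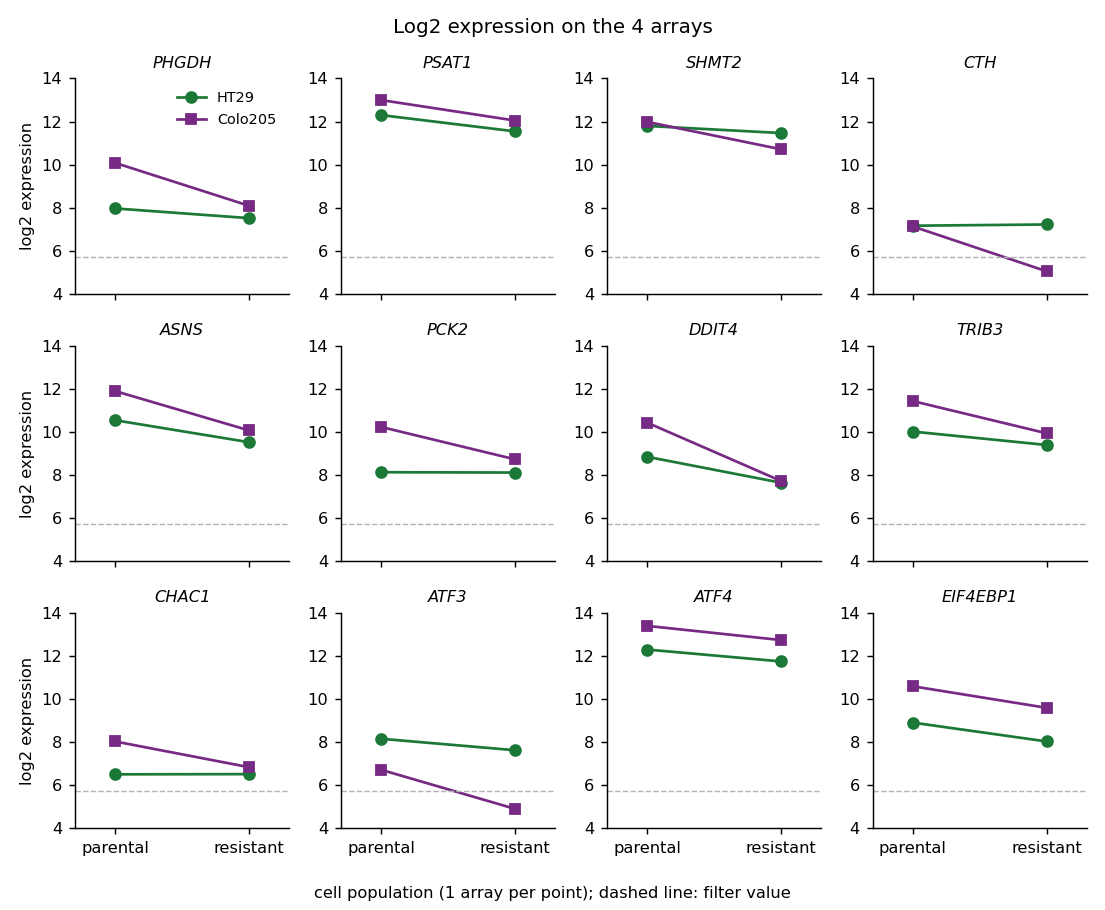
Log2 expression of 12 members on the 4 arrays, parental on the left and resistant on the right of each panel, with HT29 as circles and Colo205 as squares; each point is 1 array and the dashed line is the filter value of 5.73. Parental Colo205 is the highest array in every panel except those of CTH and ATF3, which drop below the dashed line in resistant Colo205.

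The parental lines differed in these genes. Of the 33 members past the filter, 12 were 2-fold or more higher in parental Colo205 than in parental HT29 and 3 were 2-fold or more lower, beside 11.6% and 7.08% of all genes. Their median log2 difference, Colo205 minus HT29, was 0.70 between the parents and 0.08 between the resistant lines, where that of all genes was 0.01 and 0.02. Between the resistant lines 4 members were 2-fold or more higher in Colo205 and 4 were lower, beside 10.4% and 9.24% of all genes. These comparisons share arrays with those above, so they are not independent of them.

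Of the 10 members past 2-fold in the Colo205 pair, 7 were 2-fold or more higher in parental Colo205 than in parental HT29. EIF4EBP1 alone of the 10 was still so between the resistant lines. The 10 were picked by a fall from parental Colo205, which favours a high reading there and a lower one in resistant Colo205. The matching share among all genes 2-fold or more lower in Colo205 is not given, so these counts have no background. PHGDH differed between the lines by 2.11 as parents and 0.57 as resistant cells, PCK2 by 2.10 and 0.61, and TRIB3 by 1.42 and 0.54. The median over the 33 members of resistant Colo205 minus parental HT29 was -0.04. Other members kept their distance: SLC1A4 was higher in Colo205 by 3.24 and then 3.09, SLC7A5 by 1.48 and 1.25 and ATF4 by 1.10 and 0.99, while SLC7A11 stood at -2.71 and then -3.08, lower in Colo205.

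Across both lines, limma with the cell line as a block tested the mean difference of each gene against the spread between the 2 lines. This fit has 1 residual degree of freedom of its own and 2.54 borrowed from all genes. No member passed an adjusted p of 0.05, nor did any of the 13651 genes (0%), and the smallest adjusted p over the members was 0.706. At an unadjusted p under 0.05, 7 members were lower and 0 were higher, where 4.07% of all genes were lower and 2.73% higher. They were ASNS, PSAT1, DDIT4, TRIB3, ATF3, ATF4 and EIF4EBP1, with ATF3 read from the one of its probe sets that was lower in both lines by more than 0.08. With a mean-variance trend, and with a robust one, 8 members had an unadjusted p under 0.05, beside 6.72% of all genes in each fit, and without the block 1 did, beside 0.96%, with 0 adjusted in each.

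The mean difference of ASNS was -1.42 with a limma 95% interval from -2.18 to -0.66, and it was -0.66 when both its probe sets were averaged. That of ATF3 was -1.17 and, over all its probe sets, -0.31. DDIT4, with a single probe set, had -1.96 with an interval from -3.20 to -0.71. EIF4EBP1 had -0.94 with an interval from -1.38 to -0.49, PSAT1 -0.85 with one from -1.31 to -0.39, and ATF4 -0.61 with one from -1.05 to -0.16. The limma adjusted p was 0.706 for each of these 6. PHGDH, with a mean of -1.22, had an interval from -2.49 to 0.05, and CTH, with a mean of -1.01, one from -2.73 to 0.71, as their differences were unequal between the lines. DDIT3 had a mean of -0.18 and an interval from -1.29 to 0.93. As a description over 33 genes that share the same 4 arrays, the HT29 and Colo205 differences of the members had r = 0.52 (Pearson) and rho = 0.42 (Spearman), beside r = 0.17 and rho = 0.18 over all genes.

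**Figure D3:**
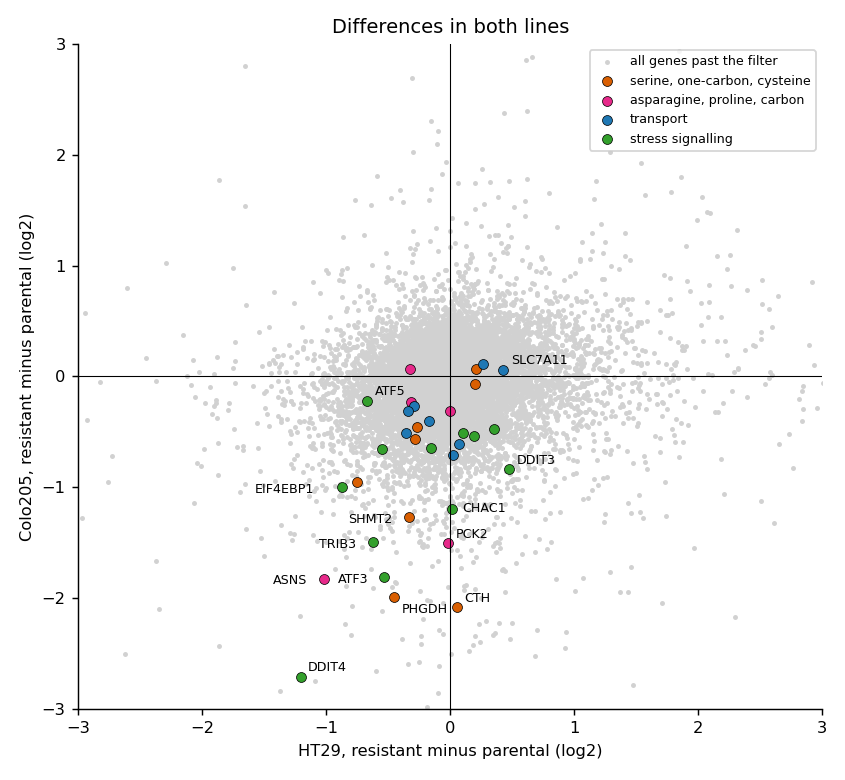
Log2 difference, resistant minus parental, in HT29 (horizontal axis) and Colo205 (vertical axis) for the 13651 genes past the filter (grey) and the 33 members (coloured by role); 60 genes lie outside the axes. ASNS, DDIT4, TRIB3, ATF3 and EIF4EBP1 lie in the lower left, while CTH, PCK2 and CHAC1 lie near 0 in HT29 and below -1 in Colo205.

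Several members lie among genes that differed together along a chromosome. Beside each member past the filter stands the median difference of the 25 genes past the filter on each side of it in RefSeq order, members left out. TRIB3, near a chromosome end, had 29 in all. In Colo205 the neighbours of the 5 members on chromosome 12 were lower: -0.35 around SHMT2, SLC38A1 and SLC38A2, -0.31 around DDIT3 and -0.28 around ALDH1L2. The 728 other genes of chromosome 12 had a median of -0.24 in Colo205 and -0.04 in HT29. Beyond its neighbours, SHMT2 was lower by 0.92 on the log2 scale, just under 2-fold, and SLC38A1 was not lower (0.04). The neighbours of CHAC1, on chromosome 15, were at -0.25, and CHAC1 differed from them by -0.95.

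In HT29 the 2 members on chromosome 7 had neighbours that differed in opposite directions. Those of ASNS were at -0.43, so that ASNS differed from them by -0.59, below 2-fold. Those of PSPH were at 0.60, so that PSPH differed from them by -0.87. The neighbours of EIF4EBP1, on chromosome 8, were at -0.29 in HT29. The neighbours of DDIT4, PHGDH, CTH, PCK2, TRIB3 and ATF3 lay within 0.10 of 0 in both lines. After subtraction of the neighbours, 8 members were 2-fold or more lower in Colo205 and 1, DDIT4, in HT29. The share of all genes past 2-fold after the same subtraction is not given, so these counts have no background. Whether gene dosage took part in the differences of the members was not tested.

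**Figure D4:**
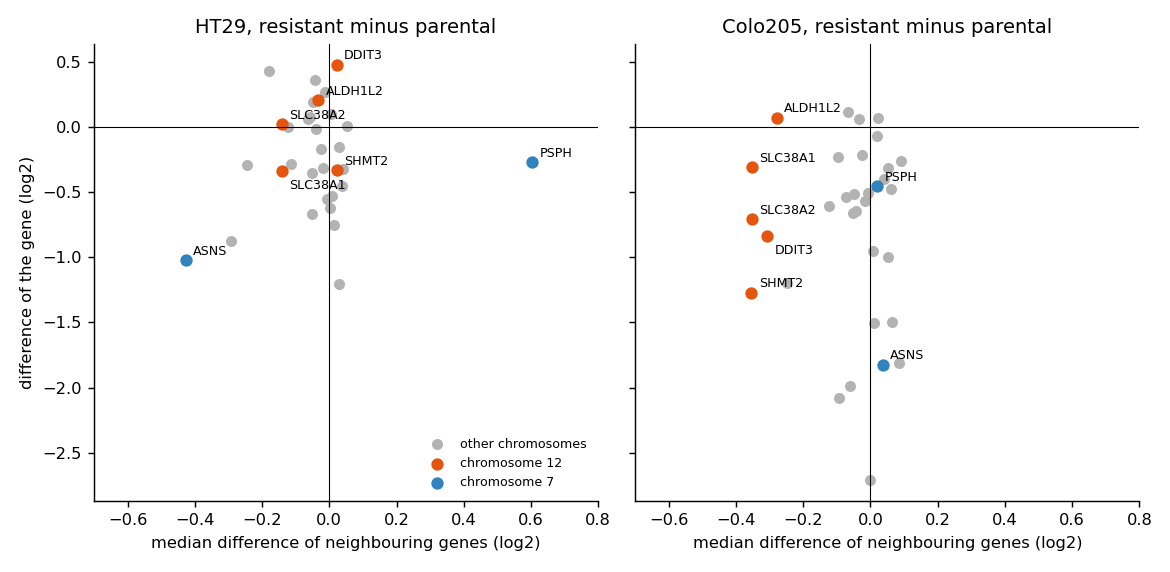
Log2 difference of each of the 33 members (vertical axis) against the median difference of its 25 neighbouring genes on each side (horizontal axis), in HT29 on the left and Colo205 on the right. The 5 members on chromosome 12 sit left of 0 in Colo205, and ASNS and PSPH on chromosome 7 lie at opposite ends of the horizontal axis in HT29.

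The rest of the pathway was followed through lists of genes chosen by function. Their counts stand beside the shares of all genes given above: 30.1% lower in both lines, 26.3% higher in both, 52.4% lower in Colo205, and 4.07% lower and 2.73% higher at an unadjusted p under 0.05. None of these lists was tested against the members. Neighbouring genes were set beside the members only, so chromosome position was not looked at for these lists. Transfer RNA synthetases load amino acids onto transfer RNA, and many are known ATF4 targets. Past the filter were 12 genes of that kind, with the transfer RNA exporter XPOT among them. All 12 were lower in Colo205 and 8 in both lines, none by 2-fold. The medians were -0.29 (HT29) and -0.37 (Colo205). XPOT was at -0.26 and -0.91, LARS1 at -0.67 and -0.37, NARS1 at -0.28 and -0.08 and GARS1 at 0.86 and -0.37. At an unadjusted limma p under 0.05, 2 of the 12 were lower and 0 passed the adjusted threshold. The other 6 cytosolic synthetases past the filter had medians of -0.02 and 0.09. Of these, 2 were lower in both lines, FARSA at -0.08 and -0.03 and KARS1 at -0.09 and -0.01. HARS1 was at 0.27 and 0.08 and FARSB at 0.04 and 0.37.

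The genes upstream of ATF4 differed in both directions. Of 17 genes of the eIF2 kinases, eIF2, eIF2B and the eIF2 phosphatase, 3 had a lower and 7 a higher value in each resistant line, and the medians were 0.12 (HT29) and 0.06 (Colo205). EIF2AK4, which encodes GCN2, was at -0.28 and -0.54, EIF2AK3, which encodes PERK and is named here after its values were seen, at 0.05 and -0.71, the lowest of the list in Colo205, the eIF2 subunit genes EIF2S3 and EIF2S1 at -0.43 and -0.34 and at 0.29 and 0.39, and GCN1, the GCN2 activator, at 0.15 and 0.35. None was 2-fold apart and 0 of the 17 had an unadjusted limma p under 0.05.

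Of 11 folate and glycine enzymes outside the members and past the filter, 8 were lower in resistant HT29 and higher in resistant Colo205. This stands beside 21.2% of all genes, and the medians over the 11 were -0.37 and 0.16. MTHFD2L, the relative of MTHFD2, was at -0.87 and 0.11, MTHFD1, the cytosolic enzyme, at -0.09 and 0.19, and the serine importer of mitochondria SFXN1 at 0.10 and 0.42. AMT, of the glycine cleavage system, was at 0.00 and -0.42.

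Genes of the ATF6 and IRE1 arms and of chaperones in the endoplasmic reticulum had medians of -0.01 in HT29 and -0.24 in Colo205 over 14 genes, with 1 gene, DNAJB9, 2-fold or more lower in Colo205 (-1.16, and 0.30 in HT29). HERPUD1 was at -0.34 and -0.52, EDEM1 at 0.58 and -0.04 and the sensor gene ERN1 at 0.95 and -0.36. Of 14 genes of mTORC1 and amino acid sensing, 5 were lower and 6 higher in both lines, with medians of 0.11 and -0.04. SESN3, a relative of SESN2, read 3.92 and 5.82 in the HT29 pair and 4.54 and 5.71 in the Colo205 pair, so its 2-fold or more higher signal in both rests on readings near or below the filter value. SESN1 was at -0.30 and -0.70, TSC2 at -0.18 and -0.51 and RRAGA at 0.54 and 0.04.

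SLC7A11 is a target of both ATF4 and NRF2, the regulator of antioxidant genes. Over 7 NRF2 targets past the filter, SLC7A11 among them, the medians were 0.49 in HT29 and 0.48 in Colo205. Of the 7, 6 were higher in both lines, and 4 had an unadjusted limma p under 0.05, with 0 past the adjusted threshold. GCLM was at 0.49 and 1.26, SRXN1 at 0.62 and 0.52 and NQO1 at -0.40 and 0.19. SLC7A11 itself was at 0.43 and 0.06.

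**Figure D5:**
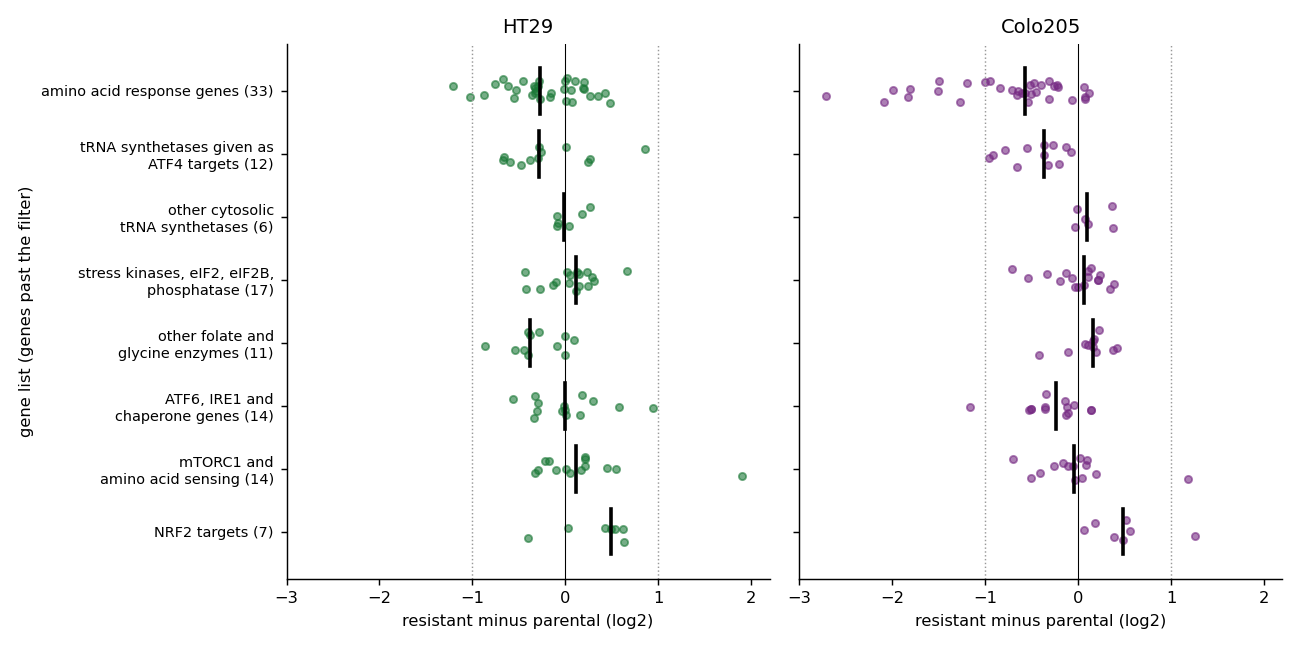
Log2 difference, resistant minus parental, in HT29 (left) and Colo205 (right) for the 33 members and for 7 further lists of the pathway; each point is a gene, black bars are medians, dotted lines mark 2-fold and the number of genes is in brackets. The members reach furthest to the left in Colo205, the 12 synthetases given as ATF4 targets all lie below 0 there, and the NRF2 targets have medians of 0.49 and 0.48.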

How the data were processed

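Per the labels, total RNA of 4 cell populations was labelled with biotin and hybridised, 1 array each. The deposited table holds log2 values for 54675 probe sets, from 2.51 to 14.88, which the authors had summarised per probe set; that they are log2 was judged from their range. Per the submitters' processing notes the tools were MAS5 and RMA, without a role for either. Precision is limited by the number of arrays.

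Probe sets that name 1 gene in the platform annotation (41091) were kept, 1 per gene, the one brightest on average. Genes whose highest reading lay below 5.73, the median of all values, were left out, which kept 13651 of 19775. Differences are resistant minus parental within a line, counted at 2-fold. Each derivative was paired with its parent through the cell line named in the labels, as a block in limma 3.58.1 (R 4.3.3), with Benjamini-Hochberg adjustment over all genes at 0.05. The procedure was also run on simulated data with differences of equal size added in both lines. Many members differed unequally between the lines, and the outcome of that run is not given here. Alternatives were other probe set rules, filters, scalings, limma settings, a 1.5-fold threshold, subtraction of neighbouring genes and leaving out each line. Named genes are all 37 members and the 2 lowest and 2 highest of each further list by mean difference, DNAJB9 among them. KRT20, CDX2, LYZ and the markers listed with them are named from fixed lists. EIF2AK3 was named after its values were seen. The members and lists were chosen with earlier results of these data known.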

Additional observations from a re-analysis of the deposited data

Results flagged for a closer look

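Of the 33 members past the filter, 2 differed in opposite directions in the lines by more than the scatter between probe sets of a gene (an SD of 0.30 in each line). DDIT3 was at 0.48 in HT29 and -0.84 in Colo205, so that the Colo205 difference minus the HT29 difference was -1.32. CEBPB was at 0.36 and -0.48, which gave -0.83. Each rests on 1 array per line and status and on a single probe set, and no test of this contrast was made. The SD used as a bar describes probe sets, not the error between arrays or cultures, and CEBPB in HT29 (0.36) is little above it. Opposite signs of any size, without that bar, made up 22.2% of all genes one way round and 21.2% the other. No share of all genes under the full rule is given, so the count of 2 has no background. DDIT3 lies on chromosome 12, where its neighbours had a median of -0.31 in Colo205.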

How the results depend on the processing

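With 1 array per line and status there is no error within a line. No member passed the adjusted limma threshold under any of the 10 alternatives, and without the replicate block that count was also 0. The count of members 2-fold or more lower in HT29 (2) was 1 with the mean of all probe sets, 1 after subtraction of neighbouring genes and 6 at 1.5-fold. In Colo205 it (10) was 16 at 1.5-fold and 8 to 10 under the other settings. At 1.5-fold the shares of all genes were 6.89% in HT29 and 7.78% in Colo205. Without the filter the 2-fold shares were 1.22% and 1.81%, and for the other settings no share of all genes is given. Members lower in both lines (20) numbered 18 to 20, and 29 of 33 were lower in Colo205 alone (without HT29) and 21 in HT29 alone (without Colo205). The HT29 median (-0.27) was -0.10 with the mean of all probe sets and -0.17 after subtraction of neighbours. With each array centred on its median, the all-gene median in Colo205 was 0.10 in place of -0.02 and that of the members -0.45 in place of -0.57. Averaging all probe sets made the mean differences of ASNS (-1.42) and ATF3 (-1.17) smaller, at -0.66 and -0.31. Of 329 single-gene values, 327 kept their direction: the mean difference of CBS (0.07) was -0.34 with the mean of all probe sets, and that of CEBPB (-0.06) was 0.0061 with centred arrays. Without the 5 members on chromosome 12, a choice made after seeing the data, 9 were 2-fold or more lower in Colo205 and 2 in HT29.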
